A study of Mus musculus with 4 samples.

Results

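Ppara, Rarg, Nr2c2 and Crabp2 encode 3 nuclear receptors and the carrier that brings retinoic acid to one of them. Each was read by 1 probe, 4 probes of the 33012 on the array, in brown adipocytes with NT-PGC-1α or with empty vector. The genes were chosen by name from the study's list of genes changed on these same arrays, and no other probe shared a gene identifier with any of them. The difference between the groups therefore chose the members, and it is given below as a description with no test.

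The cells were immortalized brown preadipocytes from FVB mice, transduced with lentivirus. The control cells carried the empty vector, and the other cells expressed NT-PGC-1α, a short amino-terminal form of the transcriptional coactivator PGC-1α, which carried an HA tag. Cells of both groups were differentiated for 2 days with insulin (20 nM) and triiodothyronine (1 nM) together with indomethacin (250 µM), dexamethasone (2 µg/ml) and isobutylmethylxanthine (0.5 mM), and then for 5 days with insulin and triiodothyronine alone. Triiodothyronine and dexamethasone are themselves ligands of nuclear receptors, and indomethacin can activate receptors of the PPAR family, so that both groups had been exposed to such ligands. RNA was combined into 1 pool per group, from 2 RNA samples by the deposited description and from 3 by the methods, and each pool was hybridized to 2 arrays, A and B. These arrays are technical replicates, so each group counts as 1 sample and no p-value is given. The range of a fold over the 4 pairings of arrays is given beside it. That range holds the spread between arrays of a pool and none of the variation between cultures.

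Nuclear receptors are transcription factors that bind DNA through zinc fingers and whose activity is set by a small molecule, often a lipid, in their ligand-binding domain. PPARα is bound by fatty acids and drives genes of fatty acid oxidation in liver, heart and brown fat. RARγ is a receptor for all-trans retinoic acid. Both bind DNA as heterodimers with the retinoid X receptor RXR, at direct repeats of the half-site AGGTCA. Nr2c2 encodes TR4, an orphan receptor that binds the same kind of repeat as a homodimer and can compete there with other receptors. CRABP2 is a small cytosolic protein that carries retinoic acid to the nucleus and passes it to retinoic acid receptors. PGC-1 coactivators have no DNA-binding domain of the receptor kind and dock on receptors through LXXLL motifs in their amino-terminal part, which NT-PGC-1α keeps. Retinoic acid and PPARα are both known inducers of Ucp1, the uncoupling protein of brown fat.

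The 3 receptor genes, which stood higher in the same pool, are shown here with the 250 bases that precede their RefSeq transcription start, written 5′ to 3′ on the gene's strand in the build GRCm38.p6. No such window was available for Crabp2, so the receptor windows were not compared with that of the lower member. The windows lie upstream of the annotated transcript, at chr15:85735526-85735775 on the plus strand for Ppara, chr15:102257523-102257772 on the minus strand for Rarg and chr6:92092183-92092432 on the plus strand for Nr2c2. Capitals mark the motifs found on either strand.
Ppara: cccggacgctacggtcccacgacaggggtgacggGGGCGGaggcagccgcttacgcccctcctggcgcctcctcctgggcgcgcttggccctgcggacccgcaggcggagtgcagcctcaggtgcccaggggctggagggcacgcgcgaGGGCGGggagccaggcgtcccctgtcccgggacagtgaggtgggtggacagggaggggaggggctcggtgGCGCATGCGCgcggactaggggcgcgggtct
Rarg: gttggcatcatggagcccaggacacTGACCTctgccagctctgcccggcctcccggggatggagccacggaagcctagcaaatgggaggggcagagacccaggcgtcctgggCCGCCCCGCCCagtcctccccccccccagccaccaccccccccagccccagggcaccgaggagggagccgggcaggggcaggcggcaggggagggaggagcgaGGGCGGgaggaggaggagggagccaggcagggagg
Nr2c2: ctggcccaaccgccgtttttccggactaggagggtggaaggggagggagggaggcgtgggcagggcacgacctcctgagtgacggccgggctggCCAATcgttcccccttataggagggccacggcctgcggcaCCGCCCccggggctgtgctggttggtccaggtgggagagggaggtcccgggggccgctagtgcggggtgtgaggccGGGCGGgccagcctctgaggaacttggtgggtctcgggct
The motifs searched were the nuclear receptor half-site AGGTCA, its direct repeats with 1 base (DR1) and with 5 bases (DR5) between the copies, the extended half-site TNAAGGTCA of estrogen-related receptors, the GC box GGGCGG bound by Sp1, the CCAAT box, the TATA box TATAAA, and the 10-base palindrome of NRF-1, a regulator of mitochondrial genes, which stands in capitals nearest to the start of Ppara. The NRF-1 motif was added after the Ppara sequence had been seen. The half-site AGGTCA lies within the other 3 receptor motifs. It occurred once among the 3 windows, on the minus strand of Rarg, 225 to 220 bases before the start, and 14.0% of the 32851 RefSeq windows of this length held it. Neither direct repeat nor the extended half-site was found in these windows, and 0.0335%, 0.00913% and 1.14% of all windows held DR1, DR5 and the extended half-site. All 3 windows held the GC box, with 2 matches in Ppara, 3 in Rarg, of which a pair overlapped by 1 base, and 2 in Nr2c2, against 32.7% of all windows. Ppara alone of the 3 held the NRF-1 palindrome, 31 to 22 bases before the start, a motif present in 257 of all windows (0.782%). Nr2c2 alone held the CCAAT box, which 33.9% of all windows had, and none of the 3 held the TATA box, against 12.4%. The windows were rich in G and C, with 76.4% in Ppara, 74.4% in Rarg and 71.2% in Nr2c2, against a median of 52.4% over all windows. RefSeq lists a second start for Rarg, at the 3′ end of chr15:102246501-102246750 on the minus strand, and that window had 52.4% G and C and no match to any of the motifs. A match is a description of letters and not a binding site.

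In these cells the pool expressing NT-PGC-1α had higher signals than the empty vector pool for all 3 receptor genes and a lower signal for the carrier. Nr2c2 was 4.29-fold higher, Ppara 2.38-fold higher and Rarg 1.60-fold higher, while Crabp2 was 1.88-fold lower. None of the 4 probes had overlapping groups of arrays, and neither did 71.7% of all probes. Of the whole array, 16.9% was at least 1.5-fold higher without overlap and 17.6% at least 1.5-fold lower, 34.4% in either direction. Among the 1342 probes that take their name from the study's list of changed genes, as the members do, these shares were 33.6% and 42.8%, against 14.7% and 17.1% of the 293 probes named by a RefSeq accession. That list holds lower genes only from 1.5-fold but higher genes from a smaller fold, so the 2 shares are set in part by its limits. In bulk RNA such as this, fewer cells of a type and less RNA per cell cannot be told apart.

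The normalized signal of the Ppara probe (841402, gene identifier mCG13586.3) was 5616 and 5908 for empty vector, arrays A and B in that order, and 13902 and 13488 for NT-PGC-1α. Both NT-PGC-1α arrays were far above both empty vector arrays, and arrays of 1 pool differed by 1.05-fold and 1.03-fold. The fold of 2.38 (log2 1.25) ranged from 2.28 to 2.48 over the pairings of arrays. Before normalization the deposited signals were 6402 and 5988 in the empty vector pool and 13799 and 11904 in the NT-PGC-1α pool, in the same order of groups. Of the 1651 probes with a mean signal close to that of Ppara, between 5628 and 9881, 49 (2.97%) were at least 1.5-fold higher without overlap and 1 had a higher fold. Over all probes, 5.39% had a higher fold. The members were taken from genes changed between these pools, so such ranks, here and below, only describe them. The plot of all probes shows that folds between the pools were spread less widely at the signals of Ppara and Crabp2 than at those of Rarg and Nr2c2.

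The probe of Rarg (652285, mCG17591.2) read 818.1 and 739.2 for empty vector, against 1284 and 1201 for NT-PGC-1α. The lower NT-PGC-1α array was above the higher empty vector array, and arrays of 1 pool differed by 1.11-fold and 1.07-fold. The mean fold was 1.60 (log2 0.67), and across the pairings it ran from 1.47 to 1.74. Rarg was the member nearest to 1.5-fold. The fold was 1.37 without normalization and 1.38 with median centring of the arrays, so that Rarg passed 1.5-fold only with some of the scalings. Of 1651 probes with a mean signal between 685 and 1071, 390 (23.6%) were at least 1.5-fold higher without overlap and 347 had a higher fold than Rarg. A fold of this size was common at this signal.

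Nr2c2 (probe 691622, mCG127892.1) read 193.0 and 181.0 in the empty vector pool, both under the median signal of 420.2 over all probes. On the NT-PGC-1α arrays its signals were 750.2 and 856.5, both above that median. The fold was 4.29 (log2 2.10), with a range of 3.89 to 4.73, against 1.07-fold and 1.14-fold between arrays of 1 pool. Of all probes, 1.34% had a higher fold. Probes with a mean signal over the 4 arrays close to that of Nr2c2 were less repeatable than those of the Ppara bin. In the bin of Nr2c2 (326 to 388, 1651 probes) the arrays of 1 pool differed by a median of 1.19-fold in the empty vector pool and 1.24-fold in the NT-PGC-1α pool, and for 5% of probes by over 1.83-fold and 1.97-fold. The empty vector signals of Nr2c2 lie below that bin, and repeatability at their level was not examined. In the bin of Ppara those medians were 1.04-fold and 1.03-fold. In the bin of Nr2c2, 496 probes (30.0%) were at least 1.5-fold higher without overlap and 59 (3.57%) had a higher fold than Nr2c2. The size of the fold also rested on how low signals were treated, since an offset of 112, the 5th percentile of all signals, added before the logarithm brought it to 3.06 (log2 1.61).

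The signal of Crabp2 (probe 311243, mCG3092.1) was 6451 and 7179 for empty vector compared with 3572 and 3664 for NT-PGC-1α. Both NT-PGC-1α arrays were below both empty vector arrays, and the arrays of 1 pool differed by 1.11-fold and 1.03-fold. Crabp2 was 1.88-fold lower (log2 -0.91), with a range of 1.76 to 2.01 over the pairings. Among 1650 probes with a mean signal between 3188 and 5621, 125 (7.58%) were at least 1.5-fold lower without overlap and 38 (2.30%) had a lower fold than Crabp2. Over all probes that share was 10.2%. As for Ppara, this was a region of the signal range where large folds were less common than over the array as a whole.

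**Figure D1:**
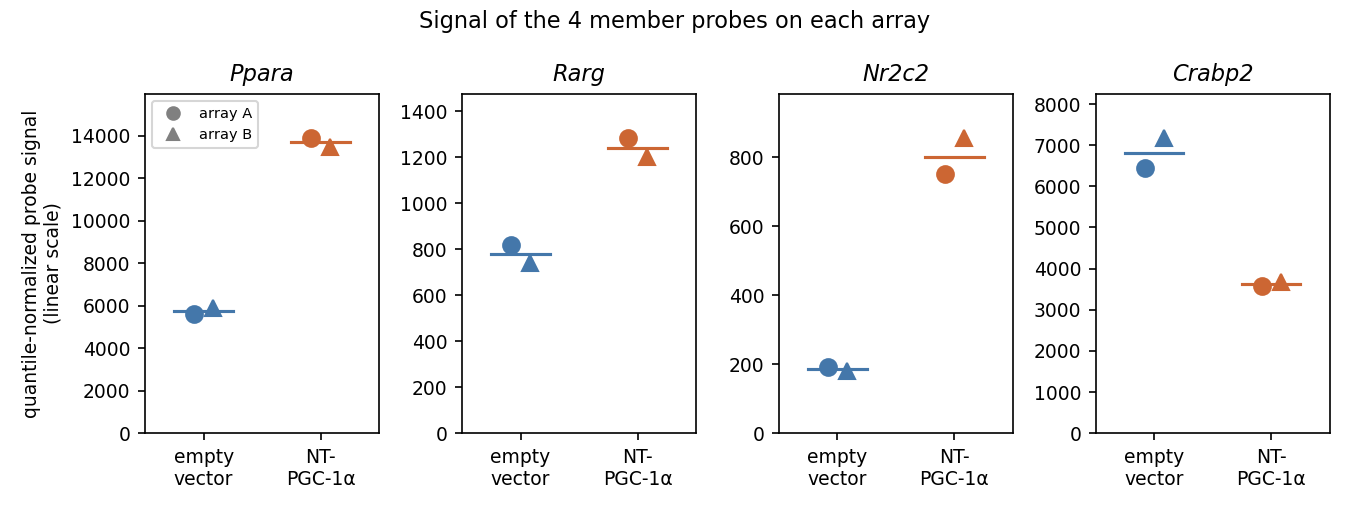
Quantile-normalized signal (linear scale from 0) of the probes of Ppara, Rarg, Nr2c2 and Crabp2 on empty vector and NT-PGC-1α arrays, with array A as a circle, array B as a triangle and the geometric mean of the pair as a line. The groups do not overlap in any panel, with NT-PGC-1α above empty vector for the 3 receptors (13902 and 13488 against 5616 and 5908 for Ppara) and below it for Crabp2 (3572 and 3664 against 6451 and 7179).

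**Figure D2:**
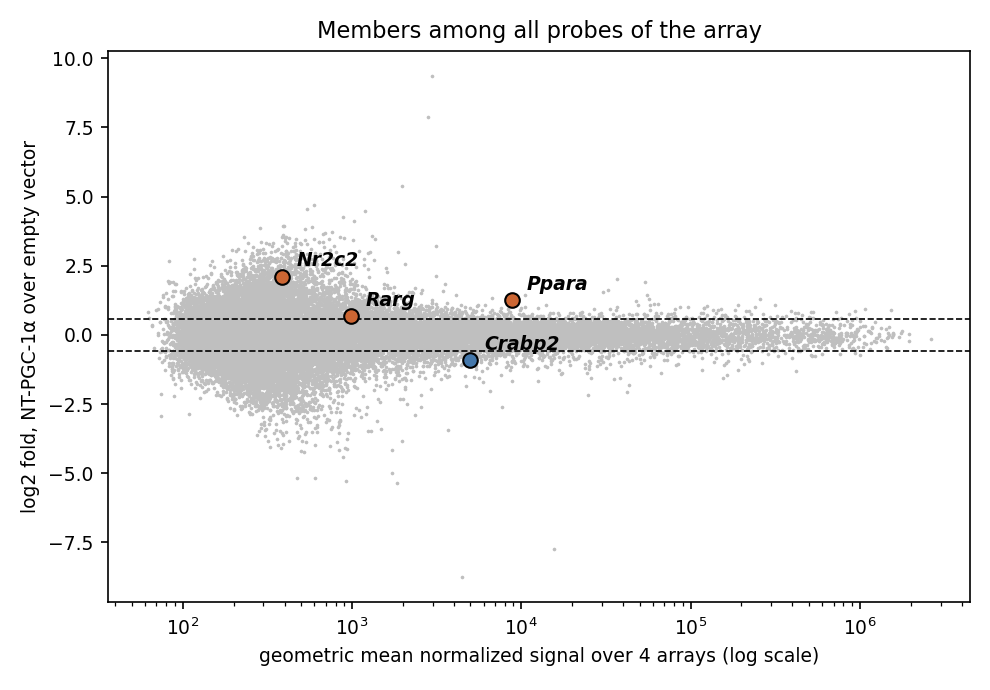
Log2 fold of NT-PGC-1α over empty vector against the geometric mean normalized signal over the 4 arrays (log scale) for all 33012 probes in grey and the members in colour, with 1.5-fold in either direction as dashed lines. Ppara (log2 1.25) and Crabp2 (log2 -0.91) lie at signals where the cloud is narrow, whereas Rarg (0.67) and Nr2c2 (2.10) lie where it is wide.

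The named probes most like each member over the 4 arrays were found by the distance between log2 signals centred on their mean, among the 1635 probes with a symbol. For Ppara they were Rnf185 (distance 0.07 log2 units) and Prkab2 (0.08), which were 2.35-fold and 2.26-fold higher. Prkab2 encodes a regulatory subunit of the energy sensor AMPK. For Rarg they were G6pd2 (0.02), Csl (0.04) and Cbx1 (0.04), each 1.59-fold higher. For Nr2c2 they were Akp2 (0.06), Tagln3 (0.09) and Crry (0.15), 4.14-fold, 4.45-fold and 4.18-fold higher, and for Crabp2 they were Slc29a3 (0.01), Mst1r (0.04) and Ddx58 (0.06), 1.87-fold, 1.89-fold and 1.83-fold lower. Akp2 is the older symbol of tissue-nonspecific alkaline phosphatase. With 4 arrays of 2 pools, this likeness is little more than an equal fold, and all of these names come from the list of changed genes.

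Ppargc1a, the gene of the expressed coactivator, read 113.9 and 135.7 for empty vector, against 1078 and 713.9 for NT-PGC-1α. That is 7.06-fold higher, with a range of 5.26 to 9.46, and both NT-PGC-1α arrays were above both empty vector arrays. A probe with no symbol that shares its gene identifier had 225.6 and 148.6 against 257.9 and 345.2, 1.63-fold higher. Where either probe lies relative to the part of the gene in the vector was not tested.

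The members were then placed among the other genes of receptor and retinoid signalling that had a named probe. Of 119 symbols in lists of nuclear receptors, receptor coregulators, retinoid carriers and retinoid enzymes, 20 had a named probe and 99, among them Rxra, Rara, Pparg, Esrra, Crabp1 and Rbp4, matched no named probe. These are counts of symbols and not of genes. In these and the later lists some genes stand under an older and a current symbol, such as Pparbp and Med1. All 21 probes of these genes owe their names to the list of changed genes, so that counts of changed probes among them are not independent evidence. Of the probes of that list, 33.6% were at least 1.5-fold higher without overlap and 42.8% at least 1.5-fold lower. Over all probes of the array these shares were 16.9% and 17.6%. The median log2 fold was 0.01 over all probes of the array and 0.39 over the probes of that list. The list took in higher genes at a smaller fold than lower ones.

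Among the nuclear receptors, 4 of 49 symbols had a named probe, of which the 3 members were higher and Nr4a2 was lower, with a median log2 fold of 0.96. Nr4a2 encodes NURR1, an orphan receptor whose gene responds rapidly to hormones and cyclic AMP. Its signals were 1669 and 2140 in the empty vector pool and 338.8 and 487.1 in the NT-PGC-1α pool, 4.65-fold lower. It was the only named receptor that went the other way, and its groups did not overlap.

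The receptor coregulators were divided. Of 6 named probes, 2 were at least 1.5-fold higher, 3 were at least 1.5-fold lower and 1 lay between, with a median log2 fold of -0.40. Besides Ppargc1a, the higher probe was that of Smarcc1, a core subunit of the SWI/SNF chromatin remodelling complex, at 168.1 and 148.4 against 1217 and 1391, 8.23-fold higher. Smarca4, the ATPase of the same complex, was 1.30-fold higher, short of 1.5-fold. The lower probes were those of 3 coactivators that bind liganded receptors: Ncoa2, 5.07-fold lower, Ncoa3, 2.28-fold lower, and Pparbp, now called Med1, the Mediator subunit that contacts PPARs, 2.78-fold lower. The signals of Ncoa2 were 890.8 and 816.1 in the empty vector pool and 186.5 and 151.8 in the NT-PGC-1α pool. These NT-PGC-1α signals, and the empty vector signals of Smarcc1 and Ppargc1a, lay under the median over all probes. The sizes of these folds therefore carry the limit given for Nr2c2, as do those of Ttr, Ucp3 and Camk4 below.

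Of the retinoid carriers, 3 of 12 symbols had a named probe, and all 3, Crabp2 included, were at least 1.5-fold lower. Fabp5, a fatty acid binding protein that can also carry retinoic acid, to PPARβ/δ, was 1.60-fold lower, from 20488 and 19694 to 12155 and 12957. A second probe that carries an identifier of Fabp5 along with another gene's had 217819 and 259693 against 207366 and 240734, so that its groups overlapped. Ttr, transthyretin, which transports thyroid hormone and the retinol-binding protein in plasma, was 6.45-fold lower, from 1454 and 1401 to 210.5 and 232.5.

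Of the retinoid enzymes, 7 of 33 symbols had a named probe, with 8 probes, of which 5 were at least 1.5-fold lower, 1 was at least 1.5-fold higher and 2 lay between. The lower probes included Aldh1a1, which oxidizes retinal to retinoic acid, at 15192 and 16404 against 5044 and 4860, 3.19-fold lower. Both probes of the closely related Aldh1a7, counted among the 5, were lower, 2.28-fold and 1.96-fold, and such near-identical genes can share hybridization. Whether Aldh1a7 acts on retinal was not examined here. Rdh12 and Adh1, which interconvert retinol and retinal, were 1.79-fold and 1.70-fold lower. Rdh9 was 1.78-fold higher, and Rdh10, the retinol dehydrogenase needed for retinoic acid synthesis in the embryo, was 1.31-fold higher. Cyp26b1, which degrades retinoic acid and is a known target of retinoic acid receptors, had 1382 and 1494 against 1934 and 2054, 1.39-fold higher with a range of 1.29 to 1.49. Of the 17 probes in these 4 lists that are not members, 3 were at least 1.5-fold higher, Ppargc1a among them. Another 11 were at least 1.5-fold lower and 3 were not past 1.5-fold. The latter were all higher, and the study's list could not name a gene lowered less than 1.5-fold.

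**Figure D3:**
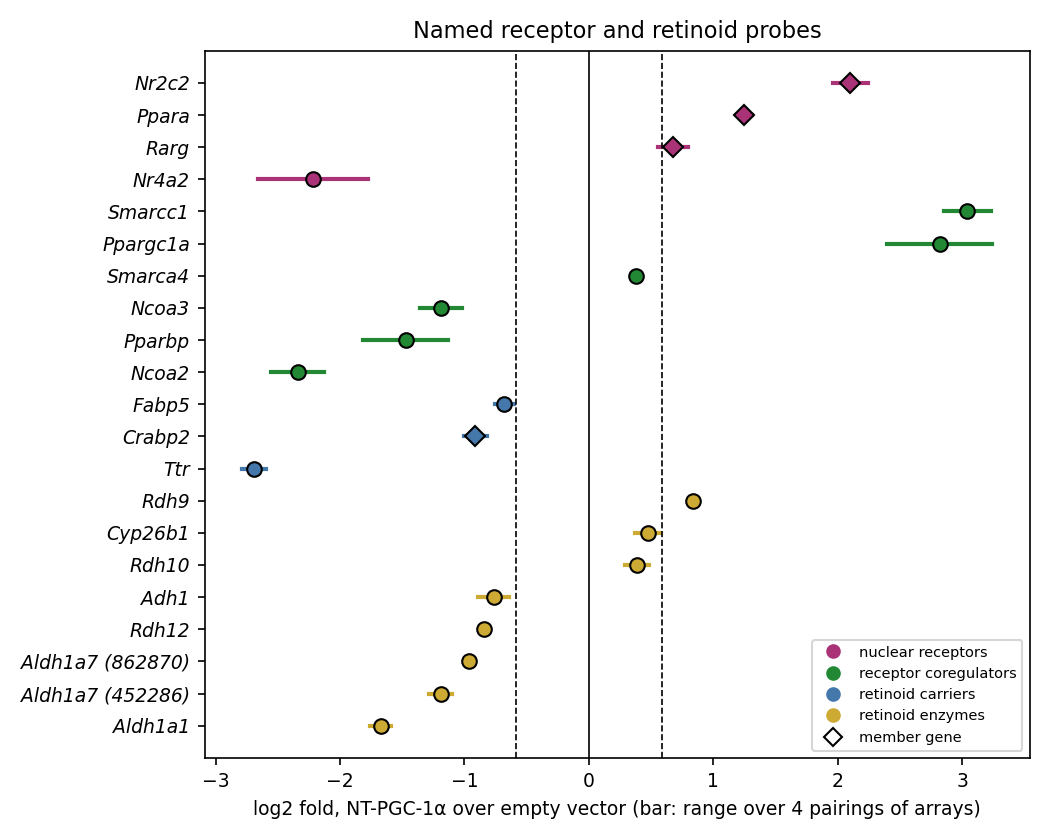
Log2 fold of NT-PGC-1α over empty vector for the 21 named probes of nuclear receptors, receptor coregulators, retinoid carriers and retinoid enzymes (colours), with the range over the 4 pairings of arrays as a bar, 1.5-fold in either direction as dashed lines and members as diamonds. The member receptors (Nr2c2 2.10, Ppara 1.25, Rarg 0.67) lie to the right, and the 3 carrier probes, Crabp2 at -0.91 among them, lie to the left.

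Genes that PPARs are known to activate were described beside Ppara. Of 41 such symbols 12 had a named probe, again all from the list of changed genes. That list could not name a gene lowered less than 1.5-fold. Of its probes 33.6% were at least 1.5-fold higher without overlap, against 16.9% of all probes, so the count that follows is not independent evidence. Of the 12, 10 were at least 1.5-fold higher without overlap, 0 were lower and 2 lay between, with a median of 1.70-fold. They included Cpt1b, the muscle and brown fat form of carnitine palmitoyltransferase at the outer mitochondrial membrane, which was 3.08-fold higher. Acaa2, the mitochondrial thiolase, was 2.91-fold higher, and Ucp3, a relative of Ucp1, was 5.74-fold higher, from 173.0 and 190.1 to 1018 and 1064. Cpt2 and Hsd17b4 were 1.41-fold and 1.35-fold higher. Without normalization or with median centring 7 of the 12 passed 1.5-fold. None of the 4 members, the 17 other probes or these 12 turned direction under another scaling, although without normalization the groups of 2 of the 17 and of 1 of the 12 overlapped.

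The study's own pathway analysis placed the members in lists that were drawn from these arrays, so that the direction of each list was fixed by the choice. Ppara and Nr2c2 stood among 10 molecules listed as higher under PPARα/RXRα activation, of which 9 were at least 1.5-fold higher and Gpd2, at log2 0.58, was just short of it, with a median of 2.40-fold. Beside them were Cpt1b and Ppargc1a, the gene of the expressed coactivator. Also in that list were Adcy9, an adenylyl cyclase, 2.51-fold higher, and Smad4, the shared mediator of TGF-β and BMP signals, 2.42-fold higher. Another 8 molecules were listed as lower under PPARα/RXRα activation, without a member among them, and the 7 matched, which included Ncoa3, Got2 and Tgfb2, were all at least 1.5-fold lower, with a median log2 fold of -1.14. Rarg stood among 10 molecules listed as higher under RAR activation, of which 8 were matched by symbol and had a median of 2.82-fold, with Smad4, Adcy9, Smarcc1 and Ppargc1a counted in it too. Rarg had the lowest fold of those 8. Crabp2 stood among 11 molecules listed as lower under RAR activation, 10 of them matched through 11 probes, all at least 1.5-fold lower, with a median log2 fold of -0.97 beside -0.91 for Crabp2. That list also held Aldh1a1, Aldh1a7, Rdh12 and the growth factor gene Tgfb2, 3.99-fold lower. Both pathways thus had a higher and a lower list, and for RAR activation the receptor Rarg was in one and the carrier Crabp2 in the other.

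The labelled cell type was examined through markers. All marker probes with a name have it from the list of changed genes, of which 33.6% passed 1.5-fold upwards and 42.8% downwards, so that their direction is not independent evidence. Of 11 brown adipocyte markers 2 had a named probe: Ppargc1a, the gene of the expressed coactivator, and Ebf2, a transcription factor of brown preadipocytes. Their summed signal was 10925 and 10423 in the empty vector pool and 18743 and 17364 in the NT-PGC-1α pool. Ppargc1a is no sign of cell type here, since the coactivator was expressed from the vector. Ebf2 alone was 1.63-fold higher. The defining markers Ucp1, Cidea and Prdm16 were among the other 9 and were not analysed here. Of 12 adipocyte marker symbols 2 had a named probe, Retn, 1.72-fold higher, and Slc2a4, the insulin-responsive glucose transporter, 1.27-fold higher, with a sum of 46796 and 47049 against 58986 and 61404. Of 8 preadipocyte and fibroblast markers, 3 had a named probe and all 3 were lower: Thy1, from 4294 and 3950 to 463.5 and 496.2, Col1a1, with a log2 fold of -0.67, and Col3a1, with -0.59. Their sum was 406020 and 447692 against 268619 and 287213. Of 8 macrophage marker symbols Cd68 and Lyzs had a named probe and were 2.43-fold and 1.97-fold lower, summing to 6086 and 5778 against 3112 and 2742. Of 8 muscle markers 2 had a named probe, the differentiation factor Myog, 2.78-fold lower, and myoglobin, Mb, 3.73-fold higher, which sum to 28764 and 28521 against 106869 and 102659. Myoglobin is also made by brown fat. No marker with a named probe was at 0 on any array. The named markers of preadipocytes and macrophages were thus lower in the pool in which Crabp2 was lower and the 3 receptors were higher, and their part in the result was not tested.

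Of the probes past 1.5-fold without overlap, 49.0% were higher with quantile normalization and 71.0% with centring on the 75th percentile. That centring moved the median log2 fold of all probes from 0.01 to 0.22. Relative to that median, the log2 folds were 1.09 for Ppara, 0.49 for Rarg (1.41-fold), 2.12 for Nr2c2 and -1.09 for Crabp2. Across all 12 alternatives the direction of the 4 members did not turn, and the fold stayed between 2.07 and 2.48 for Ppara, 1.37 and 1.66 for Rarg, 3.06 and 5.08 for Nr2c2, and between 1.79 and 2.19 lower for Crabp2. The array-letter block among them could not change a fold, and leaving out an array could hardly turn a direction.

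**Figure D4:**
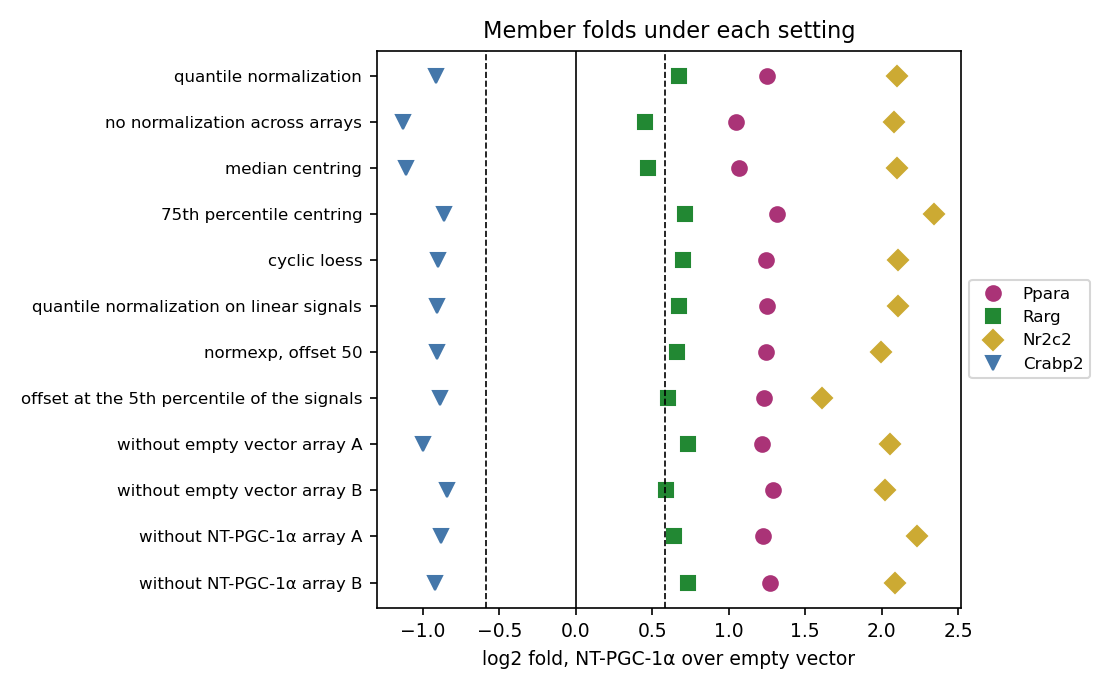
Log2 fold of NT-PGC-1α over empty vector for the 4 members (symbols) with quantile normalization, with other scalings and background settings, and without each array in turn, with 1.5-fold in either direction as dashed lines. Ppara, Nr2c2 and Crabp2 stay outside the dashed lines in every row, whereas Rarg lies inside them without normalization (0.45) and with median centring (0.47).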

How the data were processed

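RNA of NT-PGC-1α and empty vector brown adipocytes, 1 pool per group, was read on 4 ABI Mouse Genome Survey arrays. The authors digitized the chemiluminescent intensity of each of 33012 probes and deposited it on a linear scale without normalization across arrays; the submitters' processing notes name R 2.2.1. Whether background had been subtracted is not given in the sources used here, so that no probe is called detected or absent. Median intensities were 395 to 448 per array, and precision is limited by there being few arrays and pools. Arrays correlated at r of 0.991 within a pool and 0.954 to 0.957 between pools (across probes, which are not independent replicates).

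Intensities were log2-transformed and normalized by quantiles, as in the methods, with R 4.3.3 and limma 3.58.1, with no offset or filter; Python 3.11.15, numpy 2.4.6, pandas 2.3.3 and matplotlib 3.10.9 were used for the rest. A fold is the difference of mean log2 signals, returned to the linear scale. No limma test or test of the methods was run, since both arrays of a group share 1 pool. Signal bins hold a 20th of the probes each.

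Symbols came from the study's list of changed genes, used for names only (1342 probes), and from RefSeq accessions (293 probes, GRCm38.p6 names). No symbol was available for 31377 probes (95.0%). The members and lists were chosen with earlier results of these data known. Named genes are the members, Ppargc1a, the named probes of the lists, the pathway lists that hold a member, and for each member the 3 named probes nearest in centred log2 signal; some genes that this rule covers were left out of the text. On simulated data the scripts were tested for recovery of known folds. Far fewer probes were changed there than passed 1.5-fold here, so that test does not bear on the choice of scaling. The alternatives were cyclic loess, centring on the median or 75th percentile, quantiles on linear signals, unnormalized signals, normexp with an offset of 50, an offset of 112, leaving out each array, array letter as a block, a filter at the array median and a fold threshold of 2.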

Additional observations from a re-analysis of the deposited data

How the results depend on the processing

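The array-letter block could not change a fold, since each letter occurs once in each group, so its values repeat the main ones. Unnormalized signals and both centrings differ from each other only by a shift of each array. Relative to the median of all probes, Rarg was 1.41-fold in each of these settings. Leaving out an array could hardly turn a direction, since for each member all pairings of arrays lay on the same side. With all of these counted in, no member turned direction in the 48 values of 12 alternatives for 4 members. Of those values, 46 stayed past 1.5-fold. The exceptions were both Rarg, at log2 0.45 without normalization and 0.47 with median centring. Those settings gave 1.05 and 1.07 for Ppara and -1.13 and -1.11 for Crabp2, and centring on the 75th percentile gave 1.31 for Ppara and 2.35 for Nr2c2. The offset at the 5th percentile gave 1.61 for Nr2c2. Leaving out each array in turn, log2 folds ranged from 1.22 to 1.29 for Ppara, 0.59 to 0.74 for Rarg and 2.02 to 2.23 for Nr2c2, and Crabp2 was 1.79-fold to 2.00-fold lower. The count of probes at least 1.5-fold higher or lower went from 5565 and 5802 to 9227 and 3759 with 75th percentile centring, to 2847 and 3109 among the 17726 probes that exceeded the median of their arrays in at least 1 group, and to 2746 and 2892 at a fold of 2, where the threshold and the number of probes are what was altered. The 96 recomputed list counts stayed within 1.5 times. After quantile normalization, array letters did not pair the arrays (deviations correlated at r of -0.02), although the median deposited signal was lower on array B of both pools (398 and 395) than on array A (448 and 442). With the replicate block the fold of Ppara was log2 1.25, as it had to be. In this balanced layout the block cannot move a fold, so it tells nothing about an effect of the letter. The mean over probes that share an identifier was not run, and no value for other probes was given, because no other probe shares one with a member. The low empty vector signals limit the fold of Nr2c2, since the level of background is not known, and 1 pool per group limits all 4 genes. Other large folds with a low signal in 1 pool, such as those of Smarcc1, Ppargc1a, Ucp3, Ncoa2, Ttr and Camk4, are limited in the same way.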

Other observations

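RXR, the partner of PPARα and RARγ, also pairs with thyroid hormone, vitamin D, bile acid and oxysterol receptors, and the study's lists for these pathways were drawn from the same arrays. Under TR/RXR activation, the 4 molecules listed as higher had a median fold of 6.36. They included Ppargc1a, the gene of the expressed coactivator, Ucp3 and Acaca, an acetyl-CoA carboxylase. The 5 listed as lower included Camk4, 14.6-fold lower, Ncoa2 and Ncoa3. Acaca had a 10.8-fold higher named probe, but of 2 other probes with its identifier 1 was 1.11-fold higher and the groups of the other overlapped. The lists of VDR/RXR (9 matched probes), FXR/RXR (9) and LXR/RXR (7) held genes listed as lower, with median log2 folds of -1.55, -1.16 and -1.16. Ttr, Apod and Ahsg, which encode secreted plasma proteins, were in both of the last lists and were 6.45-fold, 6.71-fold and 5.49-fold lower. Neither Ppara, Rarg, Nr2c2 nor Crabp2 was in any of these lists, and all of the lists were chosen on this contrast.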
